A study of Mus musculus with 2 samples.

Results

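The 10 Kupffer cell identity genes Clec4f, Timd4, Vsig4, Cd5l, Marco, Cd163, Folr2, Id3, Nr1h3 and Spic were chosen by name, and all 10 had counts in both libraries, among 19219 genes listed in both (20468 in the normal library and 20473 in fibrosis). They were followed across Kupffer cells, recruited macrophages, monocytes and mixed droplets of liver non-parenchymal cells (NPCs). Single-cell RNA-seq was run on NPCs of 1 male C57BL/6 mouse of 8 weeks with CCl4-mediated liver fibrosis (F) and of 1 normal mouse of the same strain, sex and age in the quiescent state (Q), after intraperitoneal CCl4 in olive oil or olive oil alone, 2 injections a week for 6 weeks. CCl4 is a toxin whose repeated use injures hepatocytes and leads to scarring. Each mouse gave 1 library, so mouse, library and treatment cannot be told apart, no value has a biological replicate, and no test between the libraries was made.

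Kupffer cells are the resident macrophages of the liver sinusoid, where they take up bacteria, dying cells, aged red cells and haemoglobin from the blood. Much of their identity is set by the liver niche, through transcription factors that include the liver X receptor alpha (encoded by Nr1h3), Spi-C (Spic) and the inhibitor of DNA binding Id3. When resident cells are lost, monocytes from the blood enter the liver and can acquire the same genes step by step, with Timd4 among the late ones, while in injured liver monocytes also give rise to macrophages with another set of genes.

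Among the surface receptors, Clec4f is a C-type lectin of Kupffer cells, Timd4 binds phosphatidylserine on dying cells, Vsig4 binds complement fragments on particles, Marco is a scavenger receptor for bacteria and modified lipoproteins, Cd163 takes up haemoglobin bound to haptoglobin, and Folr2 is a folate receptor. Cd5l is a secreted protein that protects macrophages from apoptosis. In the GENCODE annotation of GRCm38 all 10 are protein-coding genes. The receptor genes lie at chr6:83644542-83656187 (Clec4f, minus strand), chr11:46810800-46844332 (Timd4, plus), chrX:96247203-96293438 (Vsig4, minus), chr1:120474538-120505024 (Marco, minus), chr6:124304656-124330527 (Cd163, plus) and chr7:101839988-101857194 (Folr2, minus). Cd5l lies at chr3:87357881-87371073 on the plus strand. The regulators lie at chr4:136143497-136145755 (Id3, plus), chr2:91184061-91202834 (Nr1h3, minus) and chr10:88674772-88685015 (Spic, minus). The library chemistry reads the 3′ ends of transcripts, so a count stands for a molecule whatever its length and says nothing of exon use.

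The 250 bases before the annotated start are shown for 3 members, from RefSeq on GRCm38.p6, all 10 members having matched. Timd4 holds AGGTCA (complement TGACCT), the core letters (a half-site) that nuclear receptors such as the liver X receptor bind, and Marco and Cd5l hold GAGGAA or its complement TTCCTC, the core letters of ETS factors such as Spi-C and its relative PU.1. Each is written 5′ to 3′ on the strand of the gene with the matching letters in capitals. The windows are chr11:46810549-46810798 on the plus strand (Timd4), chr1:120505025-120505274 on the minus strand (Marco) and chr3:87357631-87357880 on the plus strand (Cd5l).
Timd4: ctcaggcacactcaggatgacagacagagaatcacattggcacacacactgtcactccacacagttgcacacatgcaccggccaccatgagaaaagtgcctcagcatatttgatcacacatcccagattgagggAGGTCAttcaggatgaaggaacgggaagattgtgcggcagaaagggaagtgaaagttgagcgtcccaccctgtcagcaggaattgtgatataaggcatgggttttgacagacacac
Marco: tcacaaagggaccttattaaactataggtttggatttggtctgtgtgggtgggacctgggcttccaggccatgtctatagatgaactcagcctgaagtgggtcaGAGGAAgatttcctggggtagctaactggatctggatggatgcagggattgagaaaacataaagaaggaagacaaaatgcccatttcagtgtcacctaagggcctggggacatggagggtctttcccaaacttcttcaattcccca
Cd5l: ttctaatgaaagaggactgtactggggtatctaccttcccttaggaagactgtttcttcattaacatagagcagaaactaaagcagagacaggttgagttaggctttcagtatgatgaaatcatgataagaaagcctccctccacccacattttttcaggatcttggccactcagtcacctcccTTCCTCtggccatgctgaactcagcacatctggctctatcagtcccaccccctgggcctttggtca
Of 32851 such windows of all genes, searched on both strands, 14.0% held the nuclear receptor letters and 23.3% the ETS letters. Among the members, 2 held the former (Clec4f and Timd4) and 4 the latter (Cd5l, Id3, Marco and Vsig4). A direct repeat of the half-site spaced by 4 bases was found in 5 of all windows and in 0 of the 12 windows of the members. The window of Clec4f is not shown, because its RefSeq start lies inside the GENCODE gene and the matching letters with it. These matches are a description of the letters only.

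The normal library held 8130 cells (44062632 UMIs, unique molecular identifiers, each standing for a captured transcript) and the fibrosis library 6437 cells (53288463 UMIs), with medians of 4144.5 and 5619 UMIs, and 15 cell barcodes occurred in both. After cells with a mitochondrial share of 10% or more were left out, 7471 and 6132 remained. Cells were clustered and named with all 10 members held out, so that no member was used to name a class. The classes were named by other genes of the same cell types, so the levels of the members are not independent of the naming. Kupffer-cell-like cells made up 444 normal cells (5.94% of those kept, 5.42 to 6.50) and 252 fibrosis cells (4.11%, 3.63 to 4.64). In that class the 13 other Kupffer cell markers used for naming summed to 212 UMIs per 10000 UMIs of the class and 200.3 in the normal and fibrosis libraries, beside 7.03 and 27.7 in lymphoid cells, here NK/T-cell-like and B-cell-like cells together. The same markers summed to 128 and 88.6 in recruited-macrophage-like cells, in which the 11 markers of recruited macrophages summed to 28.3 and 211 (8.68 and 26.4 in Kupffer-cell-like cells). Recruited-macrophage-like cells numbered 46 and 298, monocyte-like cells 111 and 361, and mixed droplets 205 and 234. Mixed droplets are sub-clusters that carried the markers of another lineage beside those of myeloid cells, namely of NK/T cells (113 droplets) or endothelial cells (92) in the normal library and endothelial (163) or mesenchymal cells (71) in the fibrosis library. The 113 droplets took this name because of the fold of the NK/T-cell markers alone: these summed to 8.89 UMIs per 10000, against 44.9 in lymphoid cells and below the 14.6 of the neutrophil markers in the same droplets, whose leading genes were Mpo, Prtn3, Elane and Cd209a, so their values go against the name. The 46 normal recruited-macrophage-like cells were led by Mmp13, Cx3cr1 and Cd207, and the 298 fibrosis cells by the immunoglobulin gene Ighg2b with Ms4a7 and Cx3cr1 (177 cells, which against the other myeloid cells were also led by Hbb-bs and Igkc) or by Atp6v0d2 and Gpnmb (121 cells), so the class is held by different clusters in the libraries. Below, a level is the UMIs of a gene per 10000 UMIs of a class, with an exact 95% Poisson interval in parentheses. Ratios of levels have exact conditional intervals and shares of cells exact binomial (Clopper-Pearson) ones, and all of these cover counting error only. After a median log2 ratio of the members, parentheses hold the median of their lower limits and the median of their upper limits. These are not an interval for the median and do not give the spread of the members.

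In Kupffer-cell-like cells, Marco stood 5.64 times as high in fibrosis as in normal, and the other 9 members differed by less than 2-fold. Cd5l, Spic, Vsig4 and Nr1h3 were higher in fibrosis, while Cd163, Folr2, Timd4, Clec4f and Id3 were lower per 10000 UMIs but higher when counted as UMIs per cell. Each of the 10 count intervals left out a ratio of 1. Thus 1 of 10 members passed 2-fold upwards and 0 downwards, where of all 4075 genes with at least 0.5 UMIs per 10000 in either library 3.78% did so upwards and 5.62% downwards. The median log2 ratio of the members was 0.07 (-0.03 to 0.17), beside 0.14 over all these genes.

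Among the receptors, Marco stood at 4.11 (3.85 to 4.37) in the normal library and at 23.2 (22.6 to 23.8) in fibrosis, 5.64 times as high (5.27 to 6.04). Vsig4 stood at 19.0 (18.5 to 19.6) and 23.5 (22.9 to 24.1), a ratio of 1.23 (1.19 to 1.28). Clec4f stood at 48.6 (47.7 to 49.5) and 41.1 (40.3 to 41.8), a ratio of 0.845 (0.823 to 0.868). The phosphatidylserine receptor Timd4 was lower, at 4.05 (3.80 to 4.31) and 3.07 (2.86 to 3.29), a ratio of 0.759 (0.690 to 0.835). The folate receptor Folr2 was at 9.19 (8.80 to 9.58) and 6.02 (5.73 to 6.33), a ratio of 0.656 (0.614 to 0.70). Cd163 had the lowest ratio of the 10, 0.564 (0.518 to 0.614), from 6.08 (5.77 to 6.4) to 3.43 (3.21 to 3.66).

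The secreted Cd5l stood at 46.6 (45.7 to 47.4) in the normal library and 72.5 (71.4 to 73.5) in fibrosis, or 1.56 times as high (1.52 to 1.59). Of the regulators, Nr1h3 stood at 5.07 (4.79 to 5.37) and 6.04 (5.74 to 6.34), a ratio of 1.19 (1.10 to 1.28). Spic stood at 1.24 (1.10 to 1.39) and 1.96 (1.79 to 2.14), a ratio of 1.58 (1.37 to 1.83). Id3 differed least, at 7.78 (7.43 to 8.15) and 7.22 (6.89 to 7.55), a ratio of 0.927 (0.869 to 0.989).

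**Figure D1:**
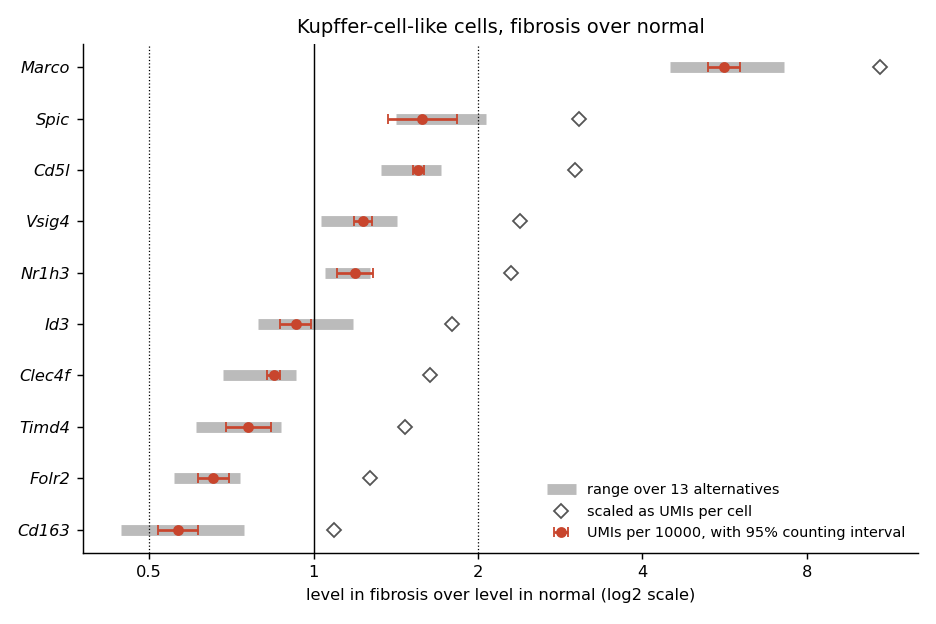
Level in fibrosis over level in normal Kupffer-cell-like cells on a log2 axis for the 10 members, with the 95% counting interval (red bars), the range over 13 alternative settings (grey) and the ratio of UMIs per cell (open diamonds). Marco lies past 2-fold under every setting shown, while Clec4f, Timd4, Cd163 and Folr2 lie below 1 per 10000 UMIs but above 1 as UMIs per cell, and Id3 lies on either side of 1.

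The cells of the classes compared differed in depth, with a median of 4607 UMIs in normal and 10009.5 in fibrosis Kupffer-cell-like cells. Counted as UMIs per cell, every gene moves up by 0.95 on the log2 scale (10317 UMIs per cell on average against 5330), so that the members that were lower per 10000 UMIs lay above 1, as the median of all genes did. No count past 2-fold is read on that scale. Genes of other cells also moved between the classes, with 9 hepatocyte markers summing to 140.5 UMIs per 10000 in normal and 15.1 in fibrosis Kupffer-cell-like cells (213 and 22.9 in lymphoid cells) and 7 erythroid markers to 44.8 and 2.13. Their part in the ratios was not tested. The normal class joined 3 sub-clusters, of 217 cells, of 174 shallow cells with a median of 1680 UMIs and of 53 cells with cell cycle genes. Marco stood at 3.57 (3.29 to 3.88) in the first, 2.06 (1.62 to 2.58) in the shallow and 7.82 (7.0 to 8.70) in the cycling cells, of whose Marco UMIs 1 cell held 29.9%. Without the shallow cells the ratio of Marco was 5.17, and without the cycling cells 7.04. A fibrosis sub-cluster of 59 cycling cells with 11 of the 13 Kupffer cell markers raised stayed unnamed, because cell cycle genes led it. It held Clec4f at 16.9 (16.2 to 17.7), Cd5l at 36.7 (35.5 to 37.8), Marco at 15.0 (14.3 to 15.8) and Cd163 at 1.18 (0.981 to 1.40), all below the fibrosis Kupffer-cell-like class. With these cells added, the ratio of Cd163 was 0.455, past 2-fold.

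To see how the members were spread over cells, Kupffer-cell-like cells with at least 5000 UMIs (211 normal and 225 fibrosis cells) were thinned to 5000 UMIs each, a depth chosen after the data were seen. A Marco UMI was found in 44.1% (37.3 to 51.1) of normal and in 84.0% (78.5 to 88.5) of fibrosis cells. Its median was 0 UMIs per cell (quartiles 0 and 2, highest 45) in normal and 6 (1 and 16, highest 142) in fibrosis cells. Marco was also the most uneven member in both, with a variance 11.8 times its mean in normal and 21.2 times in fibrosis cells, and 1 normal cell held 10.3% of all Marco UMIs of the class. Before thinning, a Marco UMI was found in 35.8% of normal and 92.5% of fibrosis Kupffer-cell-like cells. Free RNA in the suspension also gives UMIs to droplets of other cells. Lymphoid cells of the same depth carried a Marco UMI in 1.90% (211 normal cells) and 54.6% (130 fibrosis cells), with a median of 3139 and 2236 UMIs before thinning in all lymphoid cells.

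Clec4f was found in 99.5% of normal and 96.4% of fibrosis cells at this depth, with medians of 26 (quartiles 20 and 32) and 21 (14 and 27) UMIs. Cd5l was found in 99.1% and 99.6%, with medians of 24 and 34. Vsig4, whose summed level was higher in fibrosis, was found in a lower share of fibrosis cells. It was found in 99.1% (96.6 to 99.9) of normal and 91.6% (87.1 to 94.8) of fibrosis cells. Its medians were 10 and 12 UMIs, and its variance was 2.73 and 4.28 times its mean. Of lymphoid cells of that depth, 31.3% and 53.1% had a Clec4f UMI and 30.3% and 67.7% a Cd5l UMI. Timd4 was found in 82.5% (76.6 to 87.3) of normal and 62.7% (56.0 to 69.0) of fibrosis cells, and Cd163 in 76.8% (70.5 to 82.3) and 52.0% (45.3 to 58.7), with lymphoid shares of 3.79% and 9.23% for Timd4 and 4.27% and 9.23% for Cd163. Before thinning the shares were 63.5% and 72.2% for Timd4 and 64.0% and 59.1% for Cd163. Spic was found in 37.0% (30.4 to 43.9) and 57.3% (50.6 to 63.9), against 0.948% and 7.69% of lymphoid cells. A median of 8 of the 10 members was found per normal and 9 per fibrosis cell, and all 10 in 12 normal (5.69%) and 37 fibrosis cells (16.4%).

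**Figure D2:**
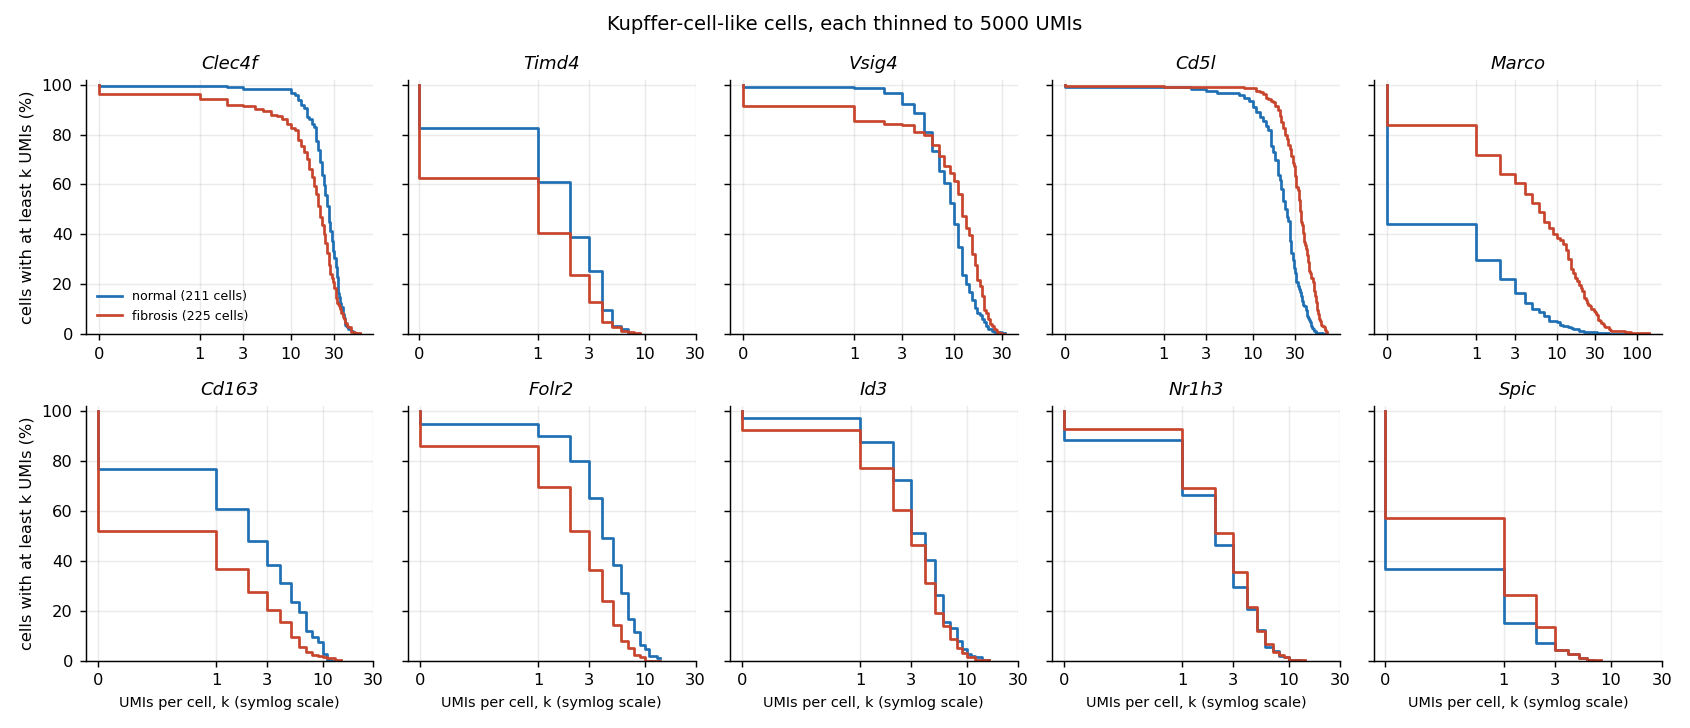
Share of Kupffer-cell-like cells (%) with at least k UMIs of a member after thinning to 5000 UMIs, against k on a symmetric log axis, for 211 normal (blue) and 225 fibrosis cells (red). The curves lie furthest apart for Marco, where 44.1% of normal and 84.0% of fibrosis cells have a UMI, and at 1 UMI the fibrosis curve lies below the normal one for 6 members, most for Cd163 and Timd4.

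Across these thinned cells the 45 pairs of members were at most moderately related, with Spearman's rho between -0.13 and 0.41 (median 0.08) over 211 normal cells and between -0.25 and 0.49 (median 0.08) over 225 fibrosis cells. These are descriptions over the cells of 1 library each, which share depth and free RNA. Clec4f went with Vsig4 in both libraries (0.38 in normal, 0.49 in fibrosis) and with Folr2 (0.36 and 0.48). Timd4 and Marco had a rho of -0.04 in normal and 0.44 in fibrosis cells. Fibrosis cells with a Timd4 UMI held Marco at 29.4 and those without at 11.2, a ratio of 2.64 (2.38 to 2.92) over 141 and 84 cells, or 2.47 without the cell richest in Marco. In the normal library the ratio was 0.674 (0.540 to 0.848) over 174 and 37 cells, but 1.15 without the richest cell, which held 45 UMIs, an alternative chosen after seeing the data. Fibrosis cells with Timd4 also held more Cd163 (2.29 times, 1.79 to 2.95), Folr2 (1.88, 1.57 to 2.26), Clec4f (1.62, 1.52 to 1.73), Vsig4 (1.57, 1.44 to 1.71) and Cd5l (1.26, 1.20 to 1.32), and less Id3 (0.831, 0.721 to 0.958). Normal cells with Timd4 also held more of these, by 1.45 times (1.16 to 1.84) for Cd163, 1.31 (1.10 to 1.57) for Folr2, 1.15 (1.07 to 1.24) for Clec4f, 1.21 (1.07 to 1.37) for Vsig4 and 1.32 (1.22 to 1.43) for Cd5l. For Nr1h3 the ratio was 1.02 (0.870 to 1.20) in fibrosis and 1.5 (1.17 to 1.94) in normal cells. Some fibrosis cells without Timd4 also held 0 or few UMIs of Clec4f and Vsig4, though they held Cd5l, and their part in these ratios was not tested. The difference between the libraries in these relations was not tested.

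Recruited-macrophage-like cells of the fibrosis library held 9 of the 10 members at a level at least 2-fold below Kupffer-cell-like cells, where 9.41% of all 3997 genes lay that far below. Id3 was the exception, at 6.54 (6.33 to 6.76) against 7.22, a ratio of 0.907 (0.857 to 0.960). Over 12 alternatives its ratio ranged from 0.808 to 1.55, and 2 of them lay above 1, UMIs per cell among them. The median log2 ratio of the members was -3.12 (-3.23 to -3.05), beside -0.14 over all genes. The lowest ratios belonged to Cd163 (0.0238, 0.0171 to 0.0323), Timd4 (0.0303, 0.0222 to 0.0404), Clec4f (0.0409, 0.0381 to 0.0438) and Marco (0.0416, 0.0379 to 0.0456), all surface receptors. Vsig4 followed at 0.0712 (0.0663 to 0.0764). Cd5l (0.186, 0.181 to 0.191) and Folr2 (0.188, 0.171 to 0.207) were less far below, and the regulators Nr1h3 (0.367, 0.340 to 0.396) and Spic (0.358, 0.312 to 0.410) nearest after Id3. As UMIs per cell every gene moves up by 0.78 on the log2 scale, which brought Nr1h3 to 0.629 and Spic to 0.613, within 2-fold. No count past 2-fold is read on that scale here either.

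Levels in lymphoid cells, which should lack the members other than Id3, a regulator that lymphocytes also use, are set beside those of recruited-macrophage-like cells. The part of free RNA in either was not tested. In the fibrosis library Clec4f stood at 1.68 (1.57 to 1.79) in recruited-macrophage-like and 3.89 (3.70 to 4.08) in lymphoid cells. Marco at 0.964 (0.882 to 1.05) against 3.16 (2.99 to 3.34), Timd4 at 0.0930 (0.0688 to 0.123) against 0.285 (0.236 to 0.342), Cd163 at 0.0816 (0.0591 to 0.110) against 0.234 (0.189 to 0.286) and Vsig4 at 1.67 (1.56 to 1.79) against 1.87 (1.74 to 2.01) were also no higher than in lymphoid cells. The other 5 members were higher than in lymphoid cells. Cd5l stood at 13.5 (13.2 to 13.8) against 7.08 (6.82 to 7.34), Folr2 at 1.13 (1.04 to 1.23) against 0.305 (0.254 to 0.364), and Id3 at 6.54 against 2.63 (2.48 to 2.79). Nr1h3 stood at 2.21 (2.09 to 2.35) against 0.758 (0.675 to 0.847), and Spic at 0.70 (0.631 to 0.776) against 0.236 (0.191 to 0.288). Per 10000 UMIs the 3 regulators, Cd5l and Folr2 thus stood above the lymphoid level and the other 5 receptors did not. This order rests on the scale. Recruited-macrophage-like cells held 17682 UMIs per cell on average and lymphoid cells 3038, which raises every gene alike when UMIs per cell are compared, with Clec4f at 2.97 against 1.18, Marco at 1.70 against 0.961 and Cd5l at 23.8 against 2.15 UMIs per cell.

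UMIs per UMI of Clec4f do not depend on the total UMIs of a class. In fibrosis Kupffer-cell-like cells there were 1.76 (1.72 to 1.81) Cd5l UMIs per Clec4f UMI, in lymphoid cells 1.82 (1.71 to 1.94) and in recruited-macrophage-like cells 8.02 (7.48 to 8.61). For Folr2 these values were 0.147 (0.139 to 0.155), 0.0785 (0.0648 to 0.0943) and 0.675 (0.607 to 0.749). For Nr1h3 they were 0.147 (0.139 to 0.155), 0.195 (0.172 to 0.220) and 1.32 (1.21 to 1.44), and for Spic 0.0477 (0.0435 to 0.0521), 0.0608 (0.0489 to 0.0747) and 0.417 (0.368 to 0.471). Vsig4, which was not above the lymphoid level, stood at 0.572 (0.554 to 0.590), 0.482 (0.441 to 0.525) and 0.995 (0.906 to 1.09). Lymphoid and Kupffer-cell-like cells did not share 1 proportion for every member, as the values of Folr2 show. Timd4, Cd163 and Marco were not higher than in lymphoid cells, with 0.0554 (0.0406 to 0.0738), 0.0486 (0.0349 to 0.0660) and 0.574 (0.514 to 0.641) per Clec4f UMI in recruited-macrophage-like and 0.0734 (0.0603 to 0.0887), 0.0601 (0.0484 to 0.0740) and 0.814 (0.756 to 0.877) in lymphoid cells. After thinning to 1000 UMIs, a Cd5l UMI was found in 32.9% of recruited-macrophage-like and 53.8% of lymphoid cells (93.0% and 81.8% before thinning, medians of 15708.5 and 2236 UMIs), so that the higher summed level of Cd5l was not matched by a higher share of cells, and no order of shares is read.

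**Figure D3:**
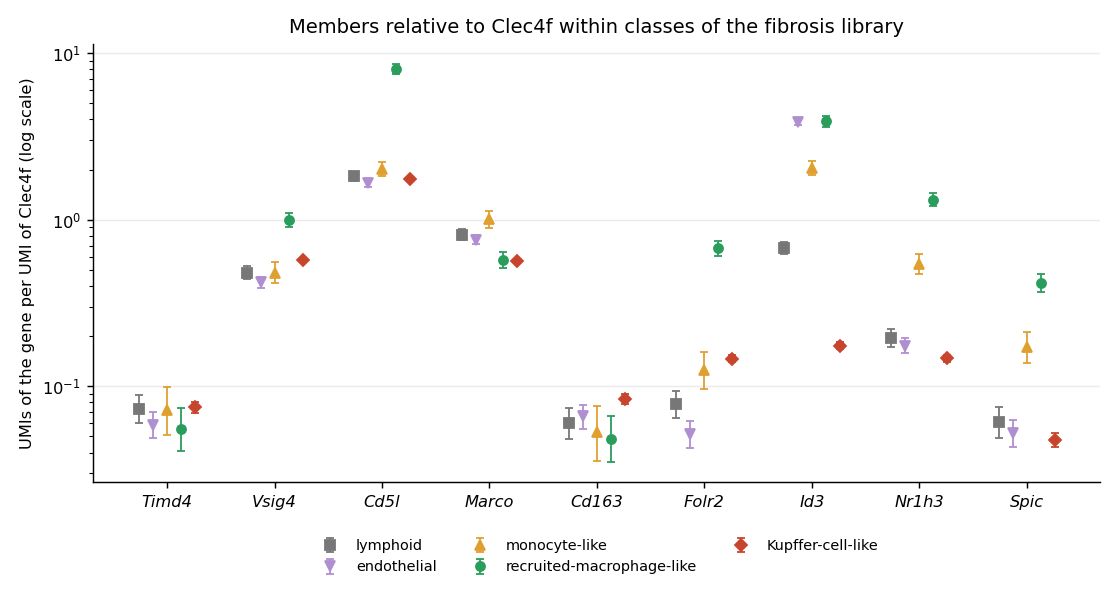
UMIs of each member per UMI of Clec4f in 5 classes of the fibrosis library, on a log axis with 95% counting intervals. Recruited-macrophage-like cells (green) lie above lymphoid, endothelial and Kupffer-cell-like cells for Cd5l, Vsig4, Folr2, Nr1h3 and Spic, and close to or below them for Timd4, Cd163 and Marco.

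In the recruited-macrophage-like sub-clusters of the fibrosis library, Cd5l stood at 12.9 (12.4 to 13.3) in the 177 cells and 14.0 (13.6 to 14.4) in the 121 cells, and Nr1h3 at 2.25 (2.06 to 2.44) and 2.19 (2.02 to 2.37). Id3 differed more, at 8.22 (7.87 to 8.59) and 5.08 (4.82 to 5.35). In the normal library the 46 recruited-macrophage-like cells held 9 members at least 2-fold below Kupffer-cell-like cells (6.83% of 4244 genes lay that far below), and Id3 above them at 12.8 (11.4 to 14.3) against 7.78, a ratio of 1.64 (1.45 to 1.85). Cd5l was at 1.22 (0.822 to 1.74) there, with 73.3% of its 30 UMIs in 1 cell, and at 1.04 (0.961 to 1.13) in lymphoid cells. Clec4f was at 1.71 (1.23 to 2.31), with 54.8% of its 42 UMIs in 1 cell, and Folr2 at 0.122 (0.0251 to 0.356). Nr1h3 stood at 1.14 (0.755 to 1.64), over the 0.317 (0.273 to 0.367) of lymphoid cells. Vsig4, at 1.18 (0.789 to 1.69, 29 UMIs, 27.6% of them in 1 cell) against 0.476 (0.421 to 0.536), and Cd163, at 0.609 (0.341 to 1.0, 15 UMIs, 53.3% in 1 cell) against 0.152 (0.121 to 0.187), were also above the lymphoid level there.

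Monocyte-like cells of the fibrosis library held 9 of the 10 members at least 2-fold below Kupffer-cell-like cells, where 6.1% of 4232 genes lay that far below, again with Id3 as the exception (0.718, 0.667 to 0.772). Over the alternatives the ratio of Id3 ranged from 0.167 (mitochondrial limit of 5%) to 0.980 (no such limit), and it was also past 2-fold at a resolution of 0.4 (0.244). As UMIs per cell, where every gene moves down alike, it was 0.443. The median log2 ratio of the members was -3.92 (-4.02 to -3.68), beside 0.05 over all genes. In the class as a whole, Clec4f, Timd4, Vsig4, Cd5l, Marco and Cd163 lay below their lymphoid levels per 10000 UMIs but above them as UMIs per cell (6367 on average against 3038), with Clec4f at 2.54 (2.33 to 2.75), Cd5l at 5.12 (4.83 to 5.42) and Marco at 2.55 (2.35 to 2.77). Folr2, at 0.318 (0.249 to 0.399), could not be told from the lymphoid level at this depth. The 3 regulators lay above, with Id3 at 5.18 (4.89 to 5.48), Nr1h3 at 1.37 (1.22 to 1.53) and Spic at 0.435 (0.354 to 0.529). Id3 and Spic were uneven among the monocyte-like sub-clusters. In 153 cells led by the interferon genes Ifnb1 and Ifnl2, Id3 stood at 9.89 (9.29 to 10.5) and Spic at 0.780 (0.619 to 0.971), while in 101 cells led by Saa3, Slpi and Fn1 they stood at 1.03 (0.823 to 1.26) and 0.0233 (0.00282 to 0.0842, 2 UMIs). Nr1h3 varied less, at 1.65 (1.41 to 1.92) and 1.19 (0.969 to 1.44). Marco was uneven too, with 0.566 (0.460 to 0.693) UMIs per Clec4f UMI in the 153 cells and 1.69 (1.41 to 2.04) in the 101 cells. Those 101 cells held 318 Marco UMIs among 857861 UMIs, and lymphoid cells 1286 among 4064963, so Marco was not below the lymphoid level there. In the normal library all 10 members were at least 2-fold lower in the 111 monocyte-like than in Kupffer-cell-like cells, where 11.8% of 4316 genes lay that far below, with Id3 at 3.04 (2.62 to 3.50).

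Mixed droplets as a class lay between Kupffer-cell-like and lymphoid cells for 9 members, Id3 excepted. The normal values of the class pool the droplets with endothelial markers and the 113 droplets whose values go against the name, so they do not stand for mixed droplets alone. Clec4f stood at 6.06 (5.71 to 6.41) in normal and 6.03 (5.80 to 6.27) in fibrosis droplets, Cd5l at 5.38 (5.06 to 5.72) and 12.1 (11.7 to 12.4), and Marco at 0.501 (0.406 to 0.611) and 4.39 (4.19 to 4.6). Per UMI of Clec4f, Vsig4, Timd4 and Cd163 overlapped Kupffer-cell-like cells in the fibrosis library, at 0.570 (0.534 to 0.609) against 0.572 (0.554 to 0.590), 0.0660 (0.0561 to 0.0773) against 0.0748 (0.0696 to 0.0804) and 0.0720 (0.0616 to 0.0837) against 0.0835 (0.0779 to 0.0894), while the proportions of Marco (0.728, 0.685 to 0.773), Cd5l (2.0, 1.91 to 2.10), Folr2 (0.185, 0.167 to 0.204), Nr1h3 (0.246, 0.225 to 0.268), Spic (0.0767, 0.0659 to 0.0888) and Id3 (1.41, 1.34 to 1.48) were higher than there. The members were not even among these droplets. In the normal library Clec4f stood at 9.43 (8.86 to 10.0) in the sub-cluster with endothelial markers and 2.04 (1.75 to 2.36) in the 113 droplets, and in the fibrosis library at 4.93 (4.66 to 5.21) with endothelial and 7.64 (7.23 to 8.06) with mesenchymal markers. After thinning to 1000 UMIs a Clec4f UMI was found in 22.0% of normal and 31.2% of fibrosis mixed droplets (47.8% and 87.6% before), and in 15.7% and 37.2% of lymphoid cells (39.7% and 63.7% before), with medians of 8657 and 15535.5 UMIs in the mixed droplets. Mixed droplets held 7.08% of all Clec4f UMIs of kept normal cells and 10.3% of those of fibrosis cells, where Kupffer-cell-like cells held 69.4% and 43.6%.

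In lymphoid cells the levels of the members in the fibrosis library were between 1.32 (Id3) and 22.4 times (Marco) those in the normal library, with a median log2 ratio of 1.55 (1.24 to 1.86), beside 0.18 over all genes. Marco went from 0.141 (0.112 to 0.176) in normal to 3.16 (2.99 to 3.34) in fibrosis cells, Cd5l from 1.04 (0.961 to 1.13) to 7.08 (6.82 to 7.34) and Clec4f from 1.47 (1.38 to 1.58) to 3.89 (3.70 to 4.08). The part of this difference in the levels of the other classes was not tested. Id3 was the member least tied to Kupffer cells, which held 6.60% of its UMIs in normal and 5.07% in fibrosis, while endothelial cells held 25.5% and 25%. It stood at 9.28 and 7.42 in endothelial and 9.32 and 9.98 in mesenchymal cells, above or near its level in Kupffer-cell-like cells.

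**Figure D4:**
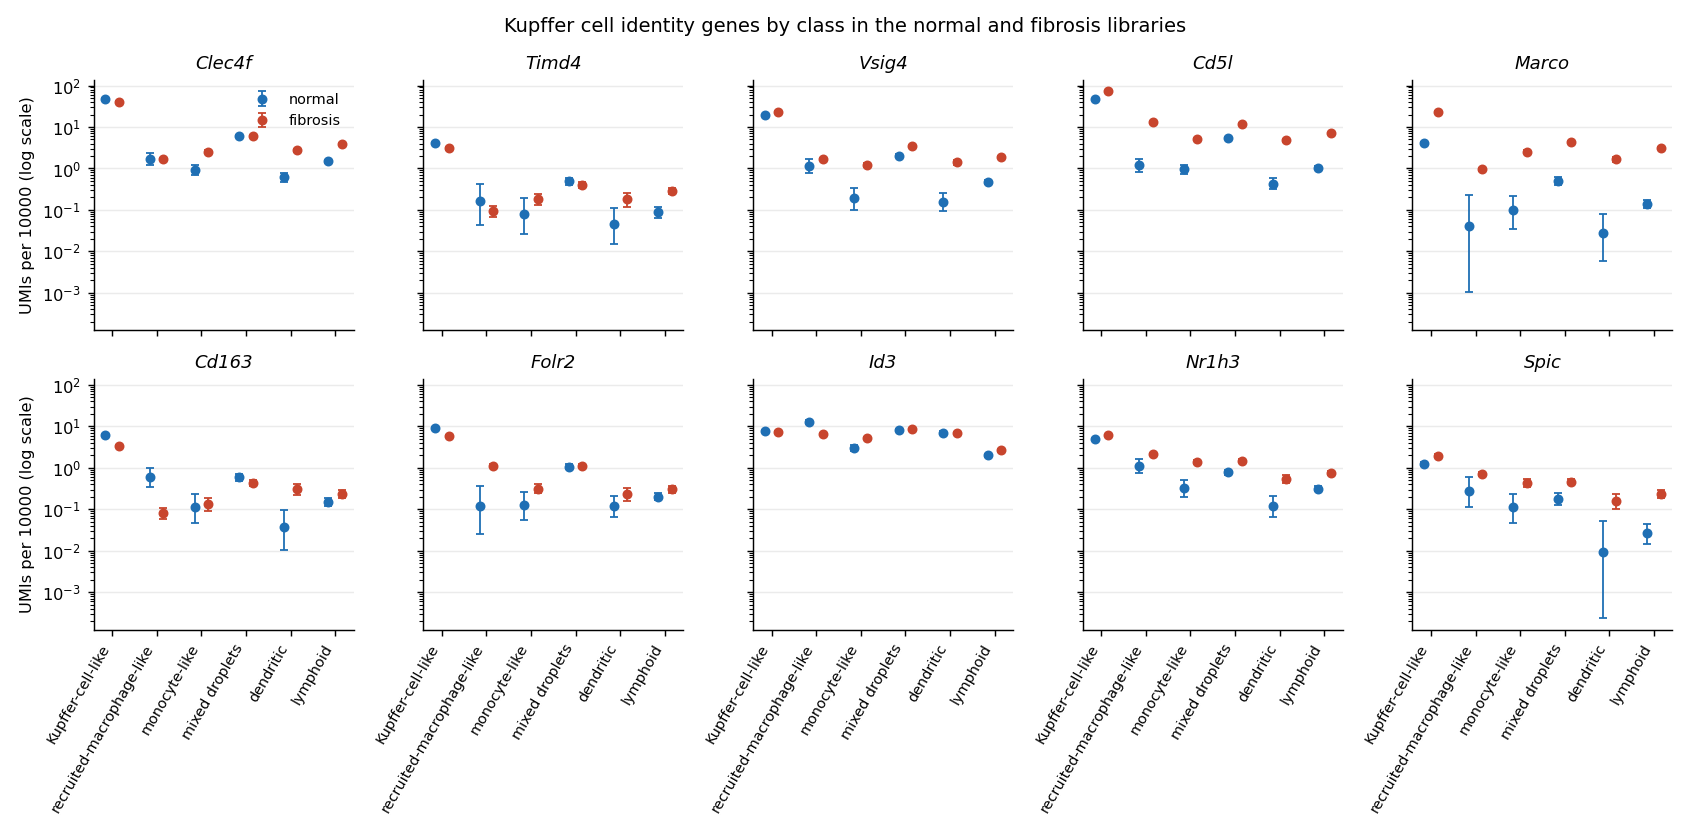
Level of the 10 members in 6 classes of the normal (blue) and fibrosis library (red), in UMIs per 10000 on a log axis with 95% counting intervals. Kupffer-cell-like cells are highest for 9 members in both libraries, Id3 is spread over the classes, and in lymphoid cells every member lies higher in the fibrosis library.

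The genes whose levels over 35 classes of both libraries followed the mean of the members most closely, among 1999 genes ranked on the log scale, were Siglec1 (Pearson's r 0.96), which encodes the sialic acid receptor of resident macrophages, Kcna2 (0.96), Lilra5 (0.95), Fabp7 (0.94) and Tmem26 (0.94), followed by Slc40a1 (0.92), which encodes the iron exporter ferroportin, Adrb1 (0.92), Dmpk (0.92), Plekhm2 (0.91) and Adamdec1 (0.90). The ranked genes leave out the members and the markers used for naming, so these genes are the closest only outside both. Kcna2, Lilra5, Fabp7, Slc40a1 and Adrb1 were among the leading genes of Kupffer-cell-like clusters, so their pattern follows in part from the clustering. The classes are not independent, since those of a library share its free RNA. Of the members themselves Id3 followed the mean of the others least (0.38), and the other 9 had values between 0.89 and 0.99.

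Other genes of the same pathways were read from 4 lists, as levels per 10000 UMIs. Of 13 transcription factors of macrophages, among them Spi1 and Irf8, none differed by 2-fold between the libraries in Kupffer-cell-like cells. Of 9 measured target genes of the liver X receptor, 3 were higher (3.78% of all genes were) and 1 lower (5.62%). The higher ones were the desaturase Scd2 (3.09 times, 2.60 to 3.69), the lipoprotein lipase Lpl (2.27) and the cholesterol exporter Abca1 (2.05, 1.88 to 2.23), and the lower one was the desaturase Scd1, which hepatocytes also express (0.375, 0.353 to 0.398). Of 8 genes of haem and iron recycling only Vcam1 passed 2-fold (3.83 times), and Slc40a1 stood at 27.7 in normal and 28.2 in fibrosis cells. Of 10 other clearance receptors only the lipid scavenger receptor Cd36 did (4.88 times). In recruited-macrophage-like against Kupffer-cell-like cells of the fibrosis library, 0 of the transcription factors passed 2-fold (of all genes 5.2% lay that far above), while 3 liver X receptor targets (Scd1, Scd2 and the phospholipid transfer protein Pltp) were lower (9.41% of all genes were). There the ferritin genes Ftl1 (3.61 times) and Fth1 (3.36 times) were higher and Vcam1 (0.126) and Slc40a1 (0.256) lower, and of the clearance receptors Stab1 was higher and Mrc1 and Axl lower. C3ar1 and Cd68 were also higher, but both were among the leading genes of the recruited-macrophage-like clusters, which fixed that direction. In monocyte-like cells 5 of the 8 haem and iron genes were lower than in Kupffer-cell-like cells (6.1% of all genes were), with Vcam1 (0.0965) and Slc40a1 (0.0985) the lowest, and of the transcription factors, where 6.81% of all genes lay at least 2-fold above, 2 were higher, Rbpj (4.34 times) and Bach1 (2.46 times), and 2 lower, among them Rxra (0.311).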

How the data were processed

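Single-cell libraries (10x Chromium, version 3, 3′ chemistry) of NPCs of 1 normal and 1 fibrosis mouse were used. The authors aligned reads with Cell Ranger 3.0.1 to mm10, per the labels, and deposited UMI counts per gene and cell, neither normalized nor filtered by mitochondrial share; 0 per-sample columns were left unused.

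Cells with a mitochondrial share under 10% and more than 200 genes were kept and clustered per library (scanpy 1.11.5, leidenalg 0.10.2) on 2000 variable genes, 10 principal components and 20 neighbours at a resolution of 0.8, and myeloid clusters were clustered again, all without the members. A cluster took the name with the most markers among its 10 leading genes, with at least 3 markers raised 2-fold. Mixed droplets needed at least 50 cells, at least the median depth of their parent cluster and 75% of a second lineage's markers raised 2-fold. These naming rules were settled after clusters had been seen, and names are rebuilt, not the authors'. Doublets were not removed, as Scrublet called 1 cell per library. Levels sum the UMIs of a class. "At least 2-fold" was counted among genes with 0.5 UMIs per 10000 in either class. Shares were thinned to 1000 or 5000 UMIs. A count of 0 was given a limit of 3 counts. The members, lists and comparisons were chosen with earlier results of these data known. All 10 members are named, as are up to 3 genes past 2-fold per list and direction (some are not reported here) and the 10 nearest genes by pattern. The counting steps were tested on simulated data.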

Additional observations from a re-analysis of the deposited data

Results flagged for a closer look

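Clec4f, Timd4, Cd163, Folr2 and Id3 moved in opposite directions between the libraries in Kupffer-cell-like and in lymphoid cells. The ratio of fibrosis over normal was 0.845 for Clec4f in Kupffer-cell-like and 2.64 in lymphoid cells, 0.759 and 3.24 for Timd4, 0.564 and 1.54 for Cd163, 0.656 and 1.5 for Folr2, and 0.927 and 1.32 for Id3. Counted as UMIs per cell, these 5 ratios are above 1 in Kupffer-cell-like cells too. For Id3, 2 of 14 alternatives gave a ratio above 1 in Kupffer-cell-like cells, UMIs per cell among them. With 1 library per group these differences were not tested.

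Id3 stood at 0.907 times its Kupffer-cell-like level in recruited-macrophage-like cells of the fibrosis library and at 1.64 times in those of the normal library, a difference that was not tested.

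The cells left out for their mitochondrial share (659 normal and 305 fibrosis cells) also held the members, which summed to 18.1 (17.6 to 18.6) UMIs per 10000 in normal and 26.5 (25.8 to 27.2) in fibrosis cells, the latter above the former.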

How the results depend on the processing

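No paired analysis was possible because each group holds 1 library, and for the same reason no library could be left out. The share of Kupffer-cell-like cells stayed between 5.78% and 6.19% in the normal library under the clustering and filter alternatives (270 and 391 of its 444 cells were left without the shallow or the cycling sub-cluster); in the fibrosis library it was 4.73% with the members allowed among the variable genes, 3.50% with no mitochondrial limit, 3.58% without the 5% of cells of highest doublet score, 3.62% with 30 principal components and 5.07% with the cycling sub-cluster. The members' median log2 ratio in Kupffer-cell-like cells, fibrosis over normal, was -0.040 with the members allowed, 1.02 as UMIs per cell, -0.094 after the lymphoid level was subtracted, 0.21 after thinning to 1000 UMIs, -0.038 without the shallow normal sub-cluster and -0.057 with the cycling fibrosis one. The count past 2-fold was 2 with the members allowed and with the cycling fibrosis sub-cluster (Cd163 beside Marco), 2 at a 5% mitochondrial limit and after thinning (Spic beside Marco), and 5 as UMIs per cell, where every gene moves up alike. Marco ranged from 4.49 to 10.9 times over the alternatives.

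For recruited-macrophage-like over Kupffer-cell-like cells of the fibrosis library the median was -3.82 with the members allowed, -2.97 with no mitochondrial limit, -3.63 at a limit of 5%, -2.81 with 30 principal components, -2.34 as UMIs per cell, -6.14 after the lymphoid level was subtracted, -3.48 without the 3 cells richest in each gene, -3.44 after thinning and -2.88 with the cycling cells. For monocyte-like cells it was -4.40 and -4.19 at resolutions of 0.4 and 1.5, -4.09 with no mitochondrial limit, -4.22 without high doublet scores, -4.18 with 30 principal components, -4.62 as UMIs per cell, -8.35 after the lymphoid level was subtracted, -3.4 after thinning and -3.67 with the cycling cells. Apart from UMIs per cell and thinning, which rescale counts, and the subtraction, which lowers low levels most, the cause of these shifts was not tested. Alternatives with sub-clusters left out or added were chosen after seeing the data. The mixed class changed in size with these choices, and held 0 normal cells at a 5% mitochondrial limit and 0 fibrosis cells at a resolution of 1.5, and 88 and 63 cells without the highest doublet scores.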
